A study of Mus musculus with 25 samples.

Results

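The respiratory chain and ATP synthase carry out oxidative phosphorylation in the inner mitochondrial membrane, and their genes were followed here in ribosome-bound mRNA of spinal cord cholinergic neurons, by Bmal1 genotype, by time of day and against whole tissue RNA. Members were chosen by name, from symbols that begin with Nduf, Uqcr, Cox4 to Cox8 or Atp5, from Sdha, Sdhb, Sdhc and Sdhd, and from the mitochondrially encoded subunits. The nuclear patterns matched 115 symbols, of which 16 were left out as processed copies marked -ps and 3 (Cox8c, Ndufa11b and Ndufs6b, with 0, 0 and 3 counts) for fewer than 10 counts over the 24 immunoprecipitates (IPs). This left 96 nuclear members. The mitochondrial genes carry no mt- prefix in the count table (ND1, COX1, ATP6 and so on), so they were matched by their place on the mitochondrial chromosome, which gave 13. The 109 members are part of 50559 genes listed and of 21738 genes tested.

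Complexes I and II feed electrons from NADH and succinate into the chain, complex III passes them to cytochrome c, complex IV (cytochrome c oxidase) passes them to oxygen, and the ATP synthase uses the proton gradient so made. Complexes I, III and IV and the ATP synthase are each assembled from subunits of both genomes: nuclear mRNAs are translated on cytosolic ribosomes and the proteins imported, while the mitochondrial mRNAs are made and translated inside the organelle. Complex II is entirely nuclear. RiboTag places a hemagglutinin tag on a protein of the cytosolic ribosome, and motor neurons, with their long axons, are known for a high demand for ATP.

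The samples were spinal cords of 6-mo-old male C57BL/6J mice. ChAT-BKO mice were ChAT-Cre;RiboTag fx/+;Bmal1 fx/fx and controls were ChAT-Cre;RiboTag fx/+, so every IP came from a mouse with ChAT-Cre and the tagged ribosome, and the controls had no floxed Bmal1. ChAT-Cre acts in all cells that express it, and each cord therefore mixes motor neurons with other cholinergic neurons. Mice were taken at Zeitgeber time (ZT) 8, in the light, or ZT20, in the dark, with 6 libraries in each of the 4 groups, and 1 Input library was a pool over genotypes, taken from homogenate that had been spun like that used for the IPs. Total counts ran from 4.04 M to 31.7 M per IP library and were 7.40 M in the Input, so that 3 counts, the level a count of 0 allows, correspond to 0.0947 to 0.743 CPM (counts scaled to a common library total) in the IPs and to 0.406 CPM in the Input. These limits cover counting error alone.

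Arntl, which encodes BMAL1, was at 6.22, 8.55 and 9.99 CPM (lowest, median and highest of 6 libraries) in controls, against 1.97, 2.60 and 3.30 CPM in ChAT-BKO libraries at ZT8, and at 7.60, 8.50 and 10.9 and 1.35, 1.81 and 2.80 CPM at ZT20, and the genotypes did not overlap at either time. Levels of single genes are given as CPM scaled by trimmed mean of M values (TMM) factors, and sums and ratios to Input as CPM on total counts. The summed level of 7 cholinergic markers was 4293 to 4740 CPM in the IPs and 583.5 CPM in the Input. Markers of other cells were lower in the IPs than in the Input but were above 0: 6 oligodendrocyte markers summed to 1646 to 2537 CPM against 23266 CPM, 6 astrocyte markers to 163 to 269 CPM against 3633 CPM, 6 microglial markers to 9.73 to 16.5 CPM against 224.7 CPM and 8 endothelial and pericyte markers to 14.0 to 27.8 CPM against 278 CPM. In bulk RNA, fewer cells of a type and less RNA per cell cannot be told apart.

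Respiratory chain transcripts were abundant in cholinergic neuron IPs. The 96 nuclear members together took 1.97% to 2.77% of all counts (19660 to 27731 CPM), and the 13 mitochondrial members took 0.298% to 0.648% (2982 to 6476 CPM). Nuclear sums were 23968 ± 2821 CPM in controls, against 24287 ± 2132 CPM in ChAT-BKO libraries at ZT8, and 24418 ± 1640 CPM and 23952 ± 2910 CPM at ZT20 (SD, n = 6). Mitochondrial sums were 4131 ± 562 and 4574 ± 785 CPM at ZT8 and 4393 ± 479 and 4324 ± 1307 CPM at ZT20, in the same order. The 4 groups overlapped in both sums. In the Input the order of the genomes was the other way round, with 13049 CPM for the nuclear members and 61635 CPM for the mitochondrial ones.

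**Figure D1:**
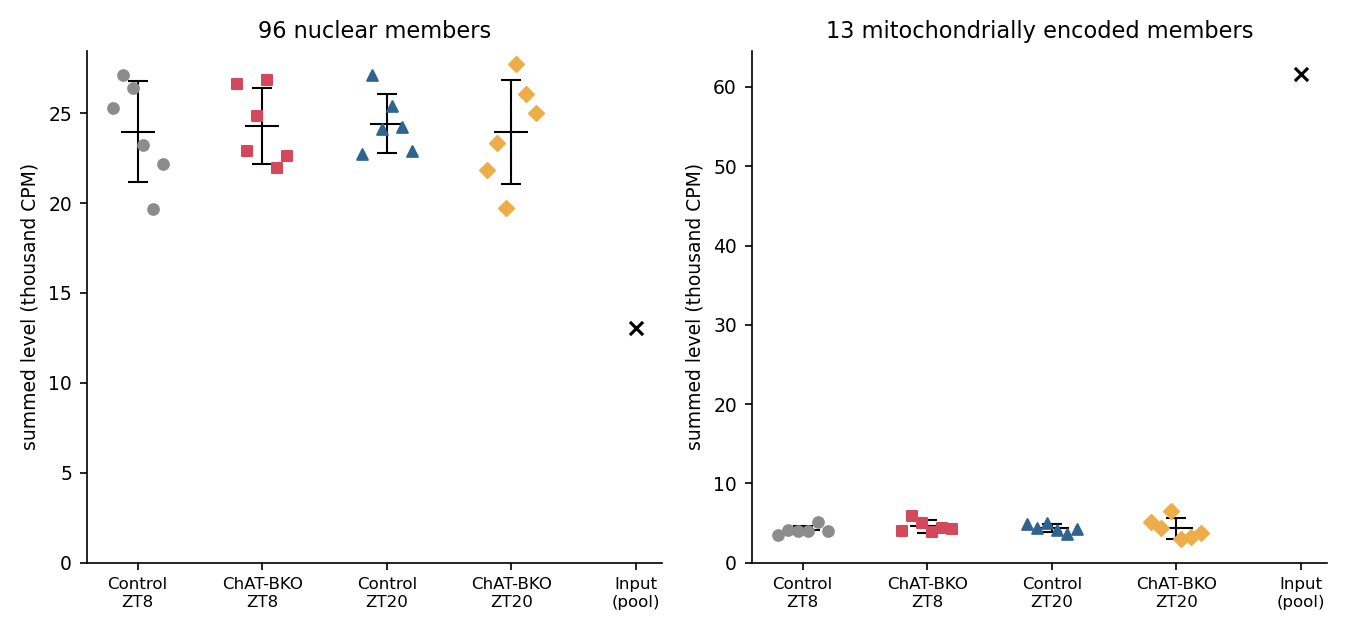
Summed level of the nuclear members (left) and of the mitochondrially encoded members (right) in each library, in units of 1000 CPM on total counts, with the mean and SD of 6 libraries per group and the single pooled Input as a cross. Nuclear sums lie between 19660 and 27731 CPM in the IPs, above the Input, and mitochondrial sums between 2982 and 6476 CPM, far below it.

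Among nuclear subunits, the structural genes of complex IV had the highest level per length of transcript. Per kilobase of transcript, the mean level was 1386 CPM for Cox4i1, the common form of complex IV subunit 4, 1095 CPM for Atp5b, the catalytic beta subunit of the ATP synthase, and 933 CPM for Ndufa4, a subunit now assigned to complex IV. The median per kilobase was 704 CPM over the 11 common complex IV subunits, 362 CPM over 17 ATP synthase genes, 330 CPM over 8 complex III genes, 231 CPM over 7 core subunits and 196 CPM over 30 accessory subunits of complex I, and 144 CPM over the 4 genes of complex II. The 8 complex I assembly factors, which build the enzyme and leave it, had a median of 22.1 CPM per kilobase. The lowest levels per kilobase belonged to Cox7b2 (0.0651 CPM), Cox6c2 (0.278 CPM) and Cox4i2 (0.422 CPM), all alternative forms of complex IV subunits. Of the mitochondrial members, COX2 was highest, at 1378 CPM per kilobase, and ATP8 lowest, at 13.9.

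The shares of the complexes kept the same order in all 24 IPs, and varied within the ranges given here. Shares were taken of the summed level of the nuclear subunits, without assembly factors, gene copies and the complex IV isoforms and related genes. Complex I subunits made up 30.02% to 32.1% of it in all 24 IPs and ATP synthase genes 34.7% to 39.3%. Complex IV subunits made up 16.9% to 20.7%, complex III 8.47% to 8.95% and complex II 3.95% to 5.09%. The spread of single genes was smallest, with an SD within groups of 0.05 on the log2 scale, for Ndufa10, Atp5a1, Sdha and Atp5b. Over all nuclear members the median SD was 0.23, and over the mitochondrial members it was 0.36.

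To learn whether Bmal1 deletion changed these transcripts in the light phase, ChAT-BKO and control libraries were compared at ZT8. No member was called at an adjusted p under 0.05 (smallest 0.718, edgeR quasi-likelihood test, Benjamini-Hochberg over all genes), where 0.184% of all genes tested were called. The groups overlapped for all 109 members, where they did not overlap for 0.57% of all genes. DESeq2 and limma voom also called 0 members. An unadjusted p under 0.05 was found for 5 of 109 members, all higher in ChAT-BKO neurons, against 4.83% of all genes. The 5 were Ndufv3 (log2 fold change 0.17, SE 0.06, adjusted p = 0.718 by edgeR) and Ndufs1 (0.13, SE 0.05, adjusted p = 0.954), which encode an accessory subunit and the large iron-sulfur subunit of complex I, Sdha (0.10, SE 0.05, adjusted p = 1), the flavoprotein of complex II, Uqcrc2 (0.10, SE 0.05, adjusted p = 1), a core protein of complex III, and Cox6c2 (2.18, SE 0.96, adjusted p = 0.997).

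Ndufv3 was at 107, 115 and 121 CPM (lowest, median, highest) in controls and at 117, 128 and 140.5 CPM in ChAT-BKO libraries at ZT8. Ndufs1 was at 236, 257.5 and 273 CPM against 265, 274 and 307 CPM. In each of these the 6 ChAT-BKO values lay above the control mean while the ranges of the groups overlapped. Sdha was at 526, 570 and 589 CPM in controls, against 573, 600 and 635 CPM in ChAT-BKO libraries. Uqcrc2 was at 244, 248 and 263.5 CPM against 259, 264 and 290 CPM. Cox6c2 had 19 counts in all over 24 IPs and was at 0 in 5 of 6 control libraries, so its fitted fold change gives no measured level.

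By complex, the values at ZT8 were close to 0 and had no common direction. The median log2 fold change was -0.0066 over the 96 nuclear members (43 higher, 53 lower) and 0.12 over the 13 mitochondrial members (12 higher), beside 0.00013 over all genes tested. It was 0.09 over the 4 genes of complex II, 0.02 over the 8 of complex III and 0.02 over the 7 core subunits of complex I, and -0.02, -0.0082 and -0.00033 over accessory complex I, complex IV and ATP synthase genes. The sign of the nuclear median turned, within -0.07 to 0.05, when control replicate 1, 2 or 3 or ChAT-BKO replicate 2, 5 or 6 was left out. The mitochondrial median was 0.02, with 7 of 13 higher, without ChAT-BKO replicate 2 and 0.24, with 12 higher, without control replicate 5. For 87 of the 96 nuclear members the 95% interval of the log2 fold change lay within ±0.5, and the other 9 were Ndufb4b and 8 rare complex IV isoforms. Among mitochondrial members 9 of 13 intervals lay within that limit, and those of ATP8, ND4L, ND5 and ND6 were wider.

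At ZT20, in the active phase, again no member was called, with a smallest adjusted p of 0.747 (edgeR), where 0.23% of all genes were called. The groups overlapped for all members here as well, where they did not for 0.506% of all genes. DESeq2 and limma voom called 0 members here too. An unadjusted p under 0.05 was found for Cox6a2 alone among the 109, against 6.28% of all genes. Cox6a2 is the complex IV isoform of heart and skeletal muscle, and its log2 fold change was 1.46 (SE 0.63, adjusted p = 0.747 by edgeR) on few counts. It was at 0, 0.0877 and 0.638 CPM in controls, against 0.132, 0.518 and 0.578 CPM in ChAT-BKO libraries. The summed level of 10 skeletal muscle markers was 8.55, 12.3 and 29.3 CPM (lowest, median, highest) in the same controls and 5.64, 72.5 and 102 CPM in the same ChAT-BKO libraries, and its part in the Cox6a2 value was not tested.

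The next smallest p-values at ZT20 belonged to accessory subunits of complex I, Ndufb6 (log2 fold change -0.16, SE 0.08, adjusted p = 0.795 by edgeR), Ndufa7 (-0.17, SE 0.10, adjusted p = 0.832) and Ndufv3 (0.11, SE 0.06, adjusted p = 0.832), and to Atp5pb (-0.12, SE 0.07, adjusted p = 0.837), which encodes the peripheral stalk subunit b of the ATP synthase. Ndufb6 was at 118, 128 and 151 CPM in controls, against 99.9, 117 and 143 CPM in ChAT-BKO libraries. Atp5pb was at 415, 465 and 505 CPM against 355, 420 and 501 CPM. The ranges overlapped over most of their length. Ndufv3 was at 103, 112 and 125 CPM against 109, 123 and 135 CPM.

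Nuclear members leaned to lower values in ChAT-BKO neurons at ZT20, with a median smaller than the error of a single gene. The median log2 fold change was -0.06 over the 96 genes (19 higher, 77 lower), with a median SE of 0.10 for a single gene, beside -0.0065 over all genes. It was -0.08 over accessory complex I, -0.07 over complex IV, where 11 of 11 subunits had negative values, -0.06 over the ATP synthase and -0.04 over complex III. Cox4i1, for one, was at 964, 1073 and 1347 CPM in controls, against 756, 995 and 1298 CPM in ChAT-BKO libraries (log2 fold change -0.12, SE 0.11, adjusted p = 0.896 by edgeR). The genes were measured in the same libraries, so their number adds no replicates. Without ChAT-BKO replicate 3 at ZT20 the nuclear median was 0.0026, with 48 of 96 genes higher, and without ChAT-BKO replicate 4 it was -0.14, with 11 higher and 10 at an unadjusted p under 0.05 (0 called, edgeR). The mitochondrial median was 0.03 with all libraries, 0.11 without ChAT-BKO replicate 4, and -0.15 without replicate 3, with 0 of 13 genes higher. It was also below 0 without ChAT-BKO replicate 1 or control replicate 4 or 5.

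**Figure D2:**
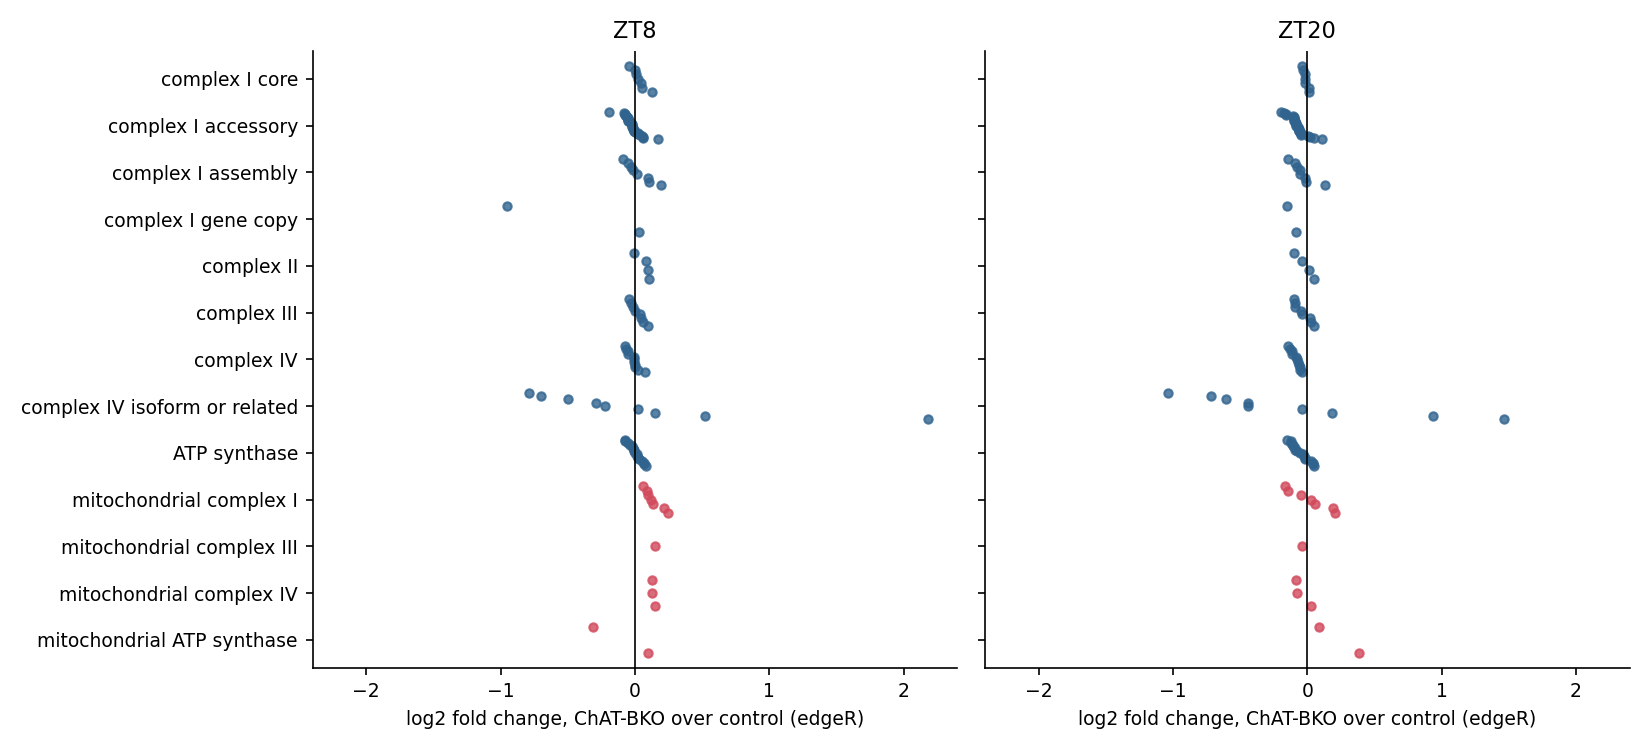
Log2 fold change of each member in ChAT-BKO neurons over controls at ZT8 (left) and ZT20 (right), 1 point per gene, grouped by complex, nuclear members in blue and mitochondrially encoded members in red. Points of the nuclear complexes and assembly factors lie between -0.20 and 0.19, and the widest spread, up to 2.18, is that of the rare complex IV isoforms, whose counts are few.

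The nuclear sums moved with a property of the libraries, and its part in these values was not tested beyond the fit given next. Each library has a slope of log2 CPM against the log2 length of the transcript over all genes, and nuclear members are short, with a median transcript of 732 bases against 2386.5 for all genes tested. The 3 libraries with the lowest slopes (0.757 to 0.774) had nuclear sums of 27107 to 27731 CPM, and the 3 with the highest (0.891 to 0.944) had 19660 to 21922 CPM. The steepest were control replicate 5 (ZT8) and, of the ChAT-BKO libraries, replicate 3 (ZT20). The latter also had the highest mitochondrial sum, 6476 CPM, and ChAT-BKO replicate 4 at ZT20, with a slope of 0.774, the lowest, 2982 CPM. Among nuclear members of at least 1 CPM at ZT20, the median log2 fold change was -0.08 for the 56 with transcripts of up to 1000 bases and -0.02 for the 32 longer ones.

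**Figure D3:**
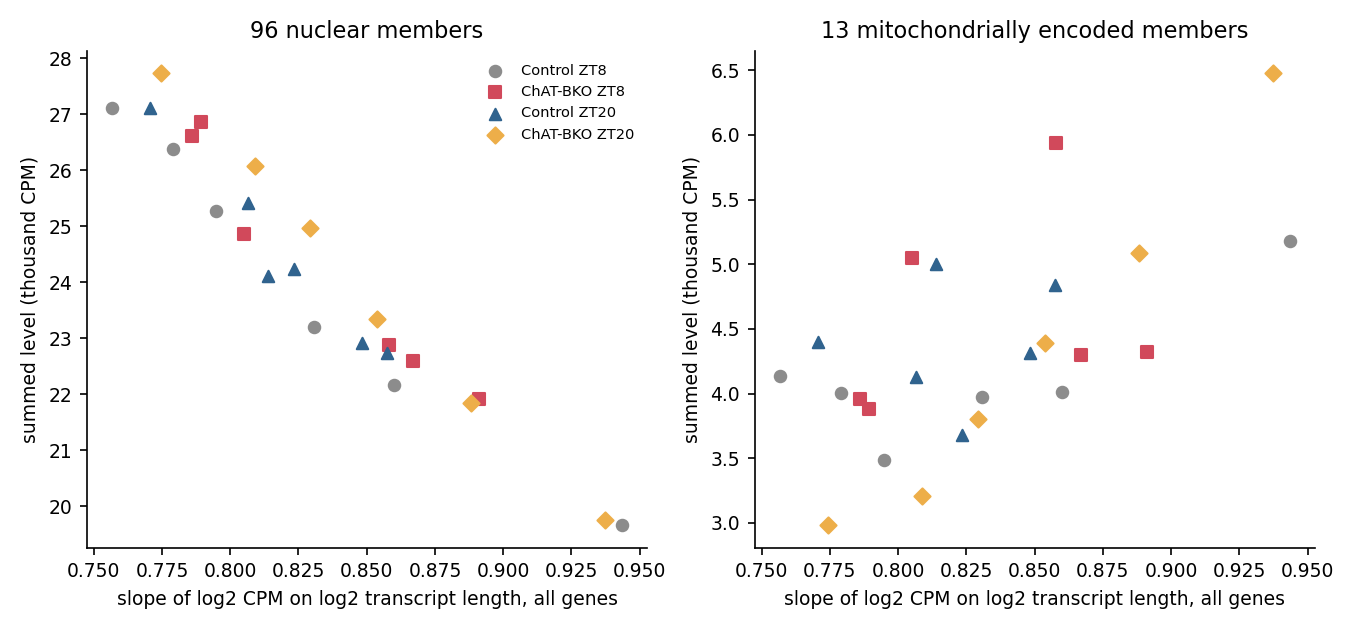
Summed level of nuclear (left) and mitochondrially encoded (right) members, in units of 1000 CPM on total counts, against the slope of log2 CPM against the log2 length of the transcript in the same library, 1 point per IP, marked by group. Nuclear sums are 27107 to 27731 CPM at the 3 lowest slopes and 19660 to 21922 CPM at the 3 highest, and the mitochondrial sums scatter more, with the highest, 6476 CPM, at a slope of 0.937.

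With this slope as a covariate, the medians at ZT20 had the other sign. The nuclear median became 0.04, with 79 of 96 members higher in ChAT-BKO neurons, and the mitochondrial median became -0.22, with 13 of 13 lower. In that fit 5 members were called, where 0.828% of all genes were. ND6 (log2 fold change -0.40, adjusted p = 0.00558 by edgeR), ND2 (-0.37, adjusted p = 0.0115), ND1 (-0.37, adjusted p = 0.0282) and CYTB (-0.22, adjusted p = 0.0360) were lower, and Ndufa6 was higher (0.16, adjusted p = 0.0281). ND1, ND2 and ND6 encode membrane subunits of complex I and CYTB the cytochrome b of complex III. Without the covariate these had adjusted p-values of at least 0.898. At ZT8 the covariate fit called Ndufs1 (0.13, adjusted p = 0.0402) and 0 others, where 0.722% of all genes were called, with a nuclear median of 0.02. The slope was measured on the same libraries, and this fit was not repeated with single libraries left out.

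The question of whether the effect of Bmal1 deletion differed between the time points was answered by the difference of the 2 effects over all 24 IPs. No member was called, here or in any alternative fit, 0% of all genes were called, and 1 of 109 members had an unadjusted p under 0.05 against 3.9% of all genes. This was Sdha, whose ChAT-BKO effect was 0.10 at ZT8 and -0.04 at ZT20 in the separate fits, and differed by -0.13 in the fit over all IPs (SE 0.06, adjusted p = 1.00 by edgeR). It was at 545, 595 and 600 CPM in controls, against 547, 569 and 593 CPM in ChAT-BKO libraries at ZT20. COX2 (-0.19, SE 0.11), ND1 (-0.34, SE 0.21), Ndufs1 (-0.11, SE 0.07) and ND6 (-0.40, SE 0.26) followed, each with an adjusted p of 1.00 (edgeR). The median difference was -0.04 over nuclear and -0.11 over mitochondrial members, beside 0.0012 over all genes, and with the length slope as a covariate 0 members were called, where 0.0046% of all genes were. In that fit the nuclear median had the other sign, 0.02 with 69 of 96 higher against 16 without the covariate, and the mitochondrial median was -0.23. Leaving out 1 library moved the mitochondrial median between -0.26 (without ChAT-BKO replicate 3 at ZT20) and -0.03 (without replicate 4 of that group). The intervals were wide, with 3 of 13 mitochondrial genes within ±0.5.

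Time of day was examined within each genotype, at ZT8 and ZT20 alone. A daily rhythm with like levels at these times would not be seen. In controls, ZT20 against ZT8, 0 members were called and 0 had an unadjusted p under 0.05, where 0.115% and 8.25% of all genes tested did (edgeR), and DESeq2 and limma voom also called 0. With the length slope as a covariate 0 members were called, where 1.62% of all genes were. The groups overlapped for all members, where they did not for 0.938% of all genes. The median log2 fold change was 0.01 over nuclear members (59 higher, 37 lower) and 0.07 over mitochondrial ones (10 higher), beside 0.0031 over all genes. The smallest p-values belonged to Ndufb4c, a copy of the complex I gene Ndufb4, at 23.7, 26.3 and 32.4 CPM at ZT8 and 26.5, 30.4 and 34.9 CPM at ZT20 (log2 fold change 0.15, SE 0.09, adjusted p = 0.674 by edgeR), and to the assembly factors Ndufaf4 (0.14, SE 0.08, adjusted p = 0.701) and Ndufaf2 (0.11, SE 0.07, adjusted p = 0.735), to COX1 (0.12, SE 0.07, adjusted p = 0.711), the catalytic subunit of complex IV, and to Sdhd (0.09, SE 0.06, adjusted p = 0.718), a membrane anchor of complex II. For 87 of 96 nuclear and 11 of 13 mitochondrial members the 95% interval lay within ±0.5.

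In ChAT-BKO neurons, 0 members were called between ZT20 and ZT8, where 0.285% of all genes were, by edgeR, and 0 by DESeq2 or limma voom. The groups overlapped for all members, where they did not for 1.18% of all genes. An unadjusted p under 0.05 was found for ND6 alone, against 9.42% of all genes. ND6, which the other strand of the mitochondrial chromosome encodes, was at 90.5, 149 and 195 CPM at ZT8 and 71.6, 94.2 and 161 CPM at ZT20 (log2 fold change -0.45, SE 0.18, adjusted p = 0.429 by edgeR). In controls it was at 95.9, 113 and 180 CPM and at 94.9, 115 and 149 CPM. Ndufs1 (-0.11, SE 0.05, adjusted p = 0.535), Sdha (-0.08, SE 0.04, adjusted p = 0.599), the muscle isoform Cox8b (-1.08, SE 0.65, adjusted p = 0.658) and ND1 (-0.24, SE 0.16, adjusted p = 0.696 by edgeR) came next. The nuclear median was -0.03 and the mitochondrial -0.04, beside 0.0030 over all genes. With the length slope as a covariate, ND6 (-0.62, adjusted p = 0.000213), CYTB (-0.23, adjusted p = 0.0281) and ND1 (-0.39, adjusted p = 0.0316) were called lower at ZT20 (edgeR), where 2.27% of all genes were called, the nuclear median became 0.04 and the mitochondrial median -0.21, with 13 of 13 lower. Each time comparison shares its libraries with the genotype comparisons.

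**Figure D4:**
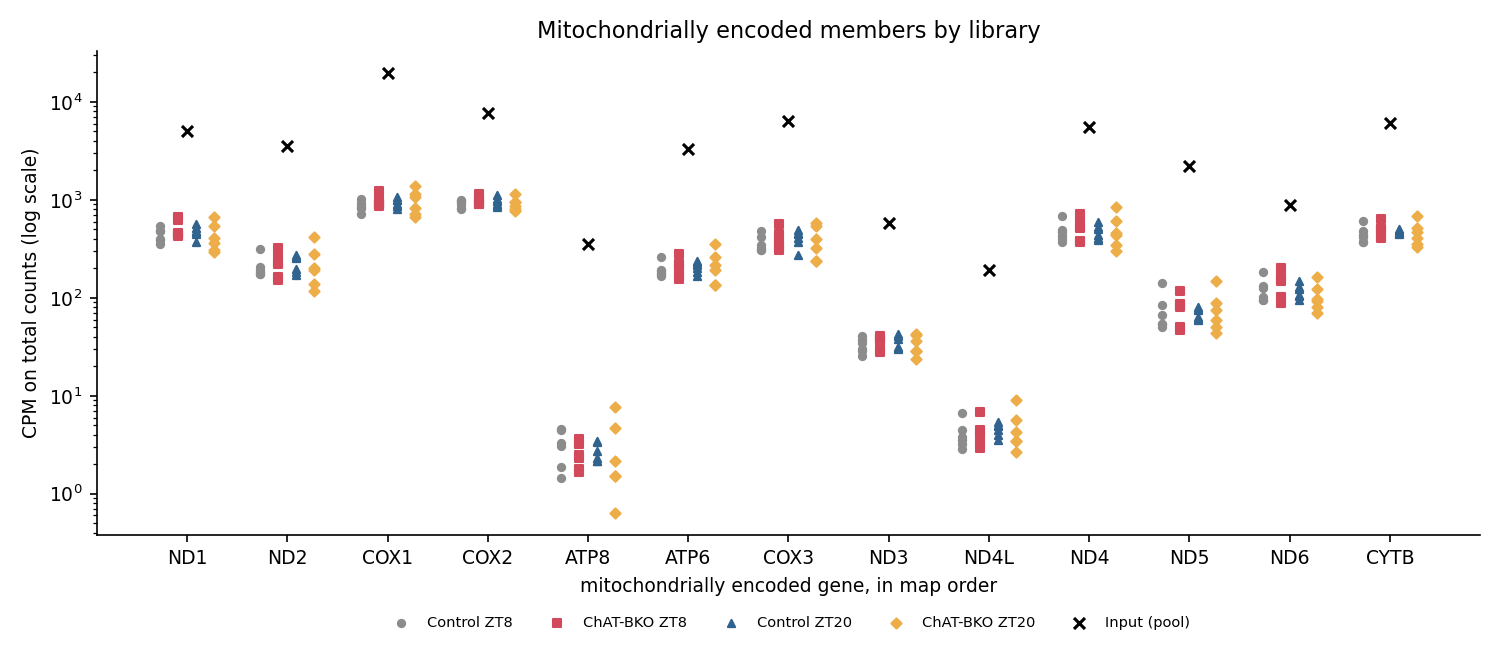
Level of each mitochondrially encoded gene in each library (CPM on total counts, log scale), in the order of the genes on the mitochondrial chromosome, with the 4 groups of 6 IPs by colour and shape and the pooled Input as a cross. Groups overlap for every gene, and all 24 IPs lie below the Input in each of the 13, most of all for ATP8.

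Other nuclear genes that serve the respiratory chain gave 0 calls among 64 in each of the 5 comparisons (edgeR). They were 33 assembly factors outside complex I's Ndufaf genes, 12 factors of mitochondrial DNA and RNA, 10 citrate cycle genes, 7 nuclear regulators, and Cyc1 and Cycs, which encode cytochromes c1 and c. The smallest adjusted p was 0.186, in the time comparison of ChAT-BKO neurons. In the comparison at ZT20, 7 of the 64 (4 higher, 3 lower) had an unadjusted p under 0.05, where 6.28% of all genes did. These included Ppargc1b, a coactivator of mitochondrial genes, at 0.50 on the log2 scale (SE 0.15, adjusted p = 0.405 by edgeR), and Tfam, which packages mitochondrial DNA and starts its transcription, with -0.18 (SE 0.07, adjusted p = 0.702). The 10 citrate cycle genes had positive values at both times, with medians of 0.06 at ZT8 and 0.10 at ZT20. Of these, 3 had an unadjusted p under 0.05 at ZT20 (edgeR), beside the same 6.28% of all genes. Of the 33 assembly factors, 13 had positive values at each time. In the time comparisons, 1 of the 10 citrate cycle genes was higher at ZT20 in controls and 4 in ChAT-BKO neurons. The 10 genes share their libraries, so a common sign adds no replicates. For this list, no fit with the length slope or with a library left out is given here.

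Set against the Input, the genomes parted. Ratios are of CPM on total counts, and since there is 1 Input library they have no test. Nuclear members have short transcripts (median 732 bases against 2386.5 for all genes tested), and no length slope was computed for the Input. The part of transcript length in these ratios was not tested. Nuclear members were higher in the IPs, with a median log2 ratio of 0.85 over the 91 with 10 or more counts in the Input, and 92.3% of them were above the Input, where 32.7% of 14954 genes were and the median of all was -0.55. The medians in the 4 groups ran from 0.84 to 0.87. Each of the 13 mitochondrial members was lower in the IPs, with a median log2 ratio of -4.08 and group medians from -4.18 to -3.98. The ratio of the mitochondrial to the nuclear sum was 2.24 in the Input on the log2 scale and -3.22 to -1.61 in the IPs.

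The highest ratios to Input belonged to Ndufs5 (log2 1.58) and Ndufab1 (1.56), accessory subunits of complex I of which the latter is also the mitochondrial acyl carrier protein, to Atp5d (1.51), the delta subunit of the ATP synthase, and to Ndufa11 (1.41) and Ndufs7 (1.41). By complex, the median was 0.94 for the ATP synthase, 0.92 for core complex I, 0.88 for complex III, 0.87 for accessory complex I, 0.85 for complex IV and 0.21 for complex II. Within complex II, Sdhb, the iron-sulfur subunit, was at 1.06, while Sdha, Sdhd and Sdhc were at 0.22, 0.21 and 0.13. Sdha was at 501 CPM in the Input and 535 to 624 CPM in the IPs. Below the Input among the nuclear genes were Ndufaf4 (-0.59), Cox7a2l (-0.45), which encodes a factor of supercomplex assembly, Atp5e (-0.18), and the rare isoforms given further on.

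**Figure D5:**
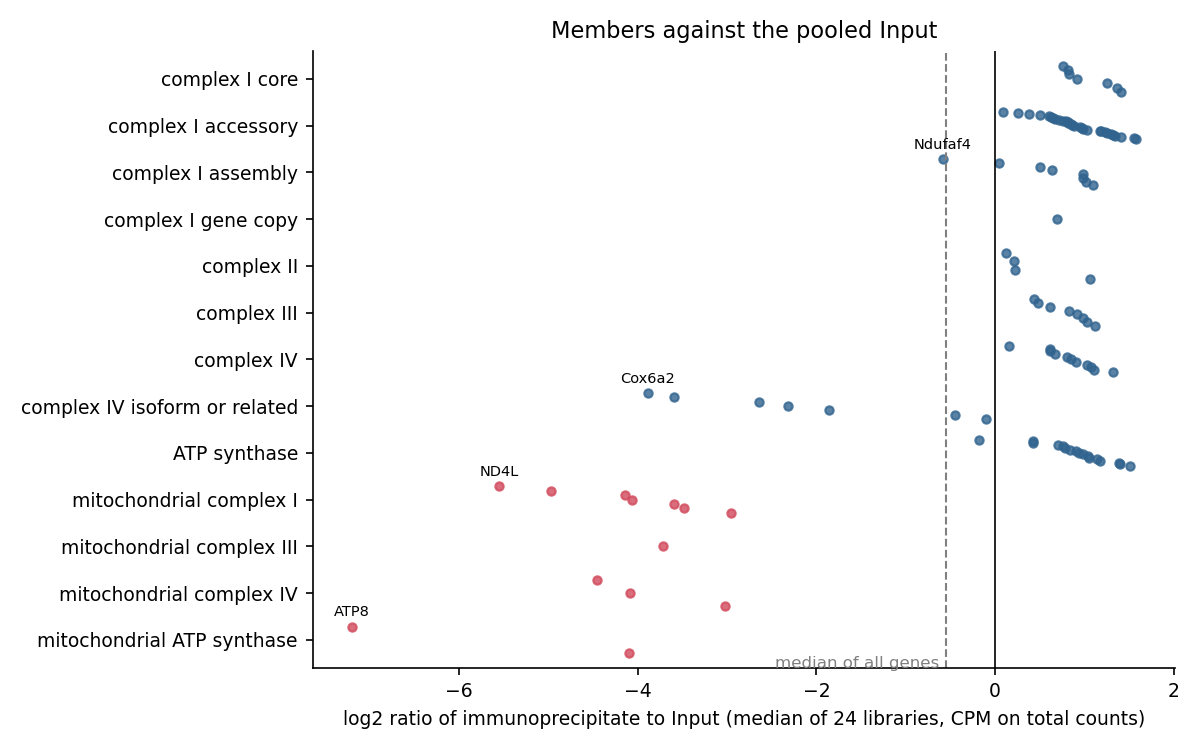
Log2 ratio of IP to Input for each member (median of 24 libraries, CPM on total counts), 1 point per gene, by complex, nuclear in blue and mitochondrially encoded in red, with the median of all genes as a dashed line at -0.55. Nuclear subunits lie to the right of 0 apart from a few isoforms, Ndufaf4, Cox7a2l and Atp5e, and the mitochondrial genes to the left, between -7.20 and -2.96.

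Mitochondrial genes differed among themselves in this ratio. The least low were ND6 (log2 -2.96, 7.78-fold lower than in the Input) and COX2 (-3.02, 8.11-fold lower). ND1 (-3.48), ND4 (-3.59), CYTB (-3.72), ND3 (-4.06), COX3 (-4.08), ATP6 (-4.09), ND2 (-4.14) and COX1 (-4.45) followed. The lowest were ND5 (-4.97), ND4L (-5.55, 46.8-fold lower) and ATP8 (-7.20, 147-fold lower). ATP8 and ND4L, at 204 and 297 bases, are also the shortest of the 13 mitochondrial members. The part of length in their ratios was not tested. COX1 was at 665 to 1400 CPM in the IPs and 19818 CPM in the Input, and ATP8 at 0.641 to 7.66 CPM and 353 CPM.

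ATP8 and ND4L are the upstream reading frames of the transcripts that also carry ATP6 and ND4. ATP8 made up 0.474%, 1.22% and 2.61% (lowest, median, highest of 24 IPs) of the counts of ATP8 and ATP6 together, and 9.56% in the Input (95% exact binomial interval 9.21% to 9.91%, which, like the others here, covers counting error only). ND4L made up 0.627%, 0.894% and 1.08% of the counts of ND4L and ND4, and 3.32% in the Input (3.15% to 3.50%). In both pairs, all 24 IPs were below the Input. ATP8 and ND4L are much shorter than their partners, and the part of length in these shares was not tested. ND6 and ND5 overlap on opposite strands, and ND6 took 52.4% to 67.4% of the pair's counts in the IPs and 28.9% (28.3% to 29.5%) in the Input. Reads that lie in shared bases cannot be told apart between partners on the same strand. For ND6 and ND5 this depends on the strand setting of the counting, which is not given in the sources used here. The libraries were made with a stranded kit. ND4L and ND4 share MT:10167-10173, and ND5 and ND6 share MT:13552-13565. The frames of ATP8 (204 bases) and ATP6 (681 bases) share the 43 bases of MT:7927-7969 (GRCm38, plus strand), shown with the start codon of ATP6 and the stop codon of ATP8 in capitals.
ATP8/ATP6 overlap: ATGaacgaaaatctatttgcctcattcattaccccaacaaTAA

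Tissue-specific isoforms made up small shares of their pairs in the IPs. Complex IV has subunit forms for muscle (Cox6a2, Cox7a1, Cox8b), for lung (Cox4i2) and for testis (Cox6b2, Cox7b2, Cox8c), and Ndufa4l2 is a hypoxia-induced relative of Ndufa4. Shares were taken on the level per kilobase of transcript and not on counts. Cox4i2 made up 0.00825% to 0.0586% of its pair with Cox4i1 in the IPs and 0.391% in the Input. In the same order, Cox6a2 made up 0% to 0.317% beside Cox6a1 and 0.891%, and Cox6b2 0% to 0.232% beside Cox6b1 and 0.815%. Cox8b made up 0% to 0.539% beside Cox8a and 0.658%, and Ndufa4l2 0% to 0.0988% beside Ndufa4 and 1.03%. Cox7b2 had 12 counts in all IPs and 0 in the Input, which allows up to 0.406 CPM there. Cox7a1 was the exception, at 1.96%, 3.38% and 4.80% (lowest, median, highest) beside Cox7a2, and 6.65% in the Input.

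These isoforms rest on few counts, 107 for Cox6a2, 92 for Cox4i2, 92 for Cox8b, 106 for Cox6b2 and 129 for Ndufa4l2 over 24 IPs, against 1306 for Cox7a1. The highest Cox6a2 level, 1.67 CPM on total counts, was in ChAT-BKO replicate 4 at ZT8, the library with the highest sum of skeletal muscle markers, 169 CPM. The level of Cox6a2 in the 4 libraries with the lowest muscle sums (4.43 to 5.64 CPM) was 0.0867 to 0.161 CPM, and in the library next in order (6.07 CPM) it was 0.370 CPM. Levels and sums did not keep 1 order, with 0.991 CPM of Cox6a2 in ChAT-BKO replicate 5 at ZT8 (muscle sum 18.8 CPM) and 0 in control replicate 5 at ZT8 (22.7 CPM). Cox7a1 was at 2.31 to 6.32 CPM and had its highest value in the library with the lowest muscle sum. Cox4i2 and Ndufa4l2 were at log2 -2.64 and -3.60 of the Input, and the 8 vascular markers had a median of -4.02. The part of muscle or vessel RNA in these levels was not tested.

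For subunit c of the ATP synthase, the 3 genes Atp5g1, Atp5g2 and Atp5g3 encode the same mature protein with different import sequences. Atp5g3 gave 64.1% to 69.7% of their summed level per kilobase of transcript in the IPs, Atp5g2 20.6% to 24.4% and Atp5g1 9.52% to 13.2%, with medians of 66.2%, 22.9% and 11.2%. In the Input the shares were 62.2%, 26.4% and 11.5%. They depend on the transcript lengths used, 718.5 bases for Atp5g3, 586 for Atp5g2 and 2675.5 for Atp5g1. By counts over the 24 IPs the order was another, with 175520 for Atp5g3, 108473 for Atp5g1 and 48695 for Atp5g2. These genes have nearly the same coding sequence, so part of the split may depend on how reads were assigned. Summing processed copies with their parent genes (for Cox5b, Ndufab1, Ndufs5 and others, and Ndufb4 with Ndufb4b and Ndufb4c) left 0 members called in each comparison.

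BMAL1 with its partner CLOCK binds the E-box, and NRF1 is a classical regulator of respiratory chain genes, so both motifs were looked for on both strands in RefSeq promoters (250 bases before to 50 after the start, GRCm38.p6), which matched 78 of the 96 nuclear members. The E-box CACGTG was found in 6 of 78 genes (7.69%) and in 8.09% of all 27025 genes. The NRF1 palindrome, the capitals of the Ndufaf4 sequence, was in 7 of 78 (8.97%) and in 1.07% of all genes, and the ETS motif CCGGAAG in 19 of 78 (24.4%) and in 9.93% of all. A match is a description of letters and not a site of binding. The 6 members with an E-box, Atp5g1, Atp5g3, Atp5l, Atp5pb, Ndufa7 and Ndufv1, had log2 fold changes from -0.07 to 0.06 in ChAT-BKO neurons at ZT8 and from -0.17 to 0.05 at ZT20 (0 called, edgeR). Shown with the motif in capitals, with up to 30 bases on each side and from the gene's strand, are 2 E-boxes that lie outside annotated exons, at chr9:44920854-44920919 and chr19:4012889-4012954 (both minus strand), and the NRF1 palindrome of the assembly factor gene Ndufaf4, at chr4:24897940-24898009 (plus strand). They stand 147, 169 and 113 bases before the start, counted to the motif's 5′ end. The E-box of Atp5g3 is not shown, since the RefSeq start it precedes lies inside the annotated gene.
Atp5l: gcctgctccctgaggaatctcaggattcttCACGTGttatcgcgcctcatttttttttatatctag
Ndufv1: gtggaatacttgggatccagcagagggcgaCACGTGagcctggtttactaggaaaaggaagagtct
Ndufaf4: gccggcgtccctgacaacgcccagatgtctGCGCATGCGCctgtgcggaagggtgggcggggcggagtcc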

How the data were processed

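Polyadenylated RNA from 24 RiboTag IPs and 1 pooled Input was sequenced by the study. The authors aligned reads to mm10 with STAR 2.7.5 and deposited RSEM expected counts per gene, not normalized, of which 6.11% of values were not whole. The strand setting of the counting is not given in the sources used here. Expected counts were rounded, and the 21738 genes with at least 10 counts over the 24 IPs were tested with edgeR 4.0.16 (R 4.3.3; TMM, quasi-likelihood test, Benjamini-Hochberg adjustment, threshold 0.05) on the 12 libraries of each comparison, or on all 24 for the difference of effects. Groups followed the labels, with 6 libraries each. Each sample was 1 cord, and p-values measure the spread between these libraries. Total counts of 4.04 M to 31.7 M limit the precision of rare genes. Alternatives were DESeq2 1.42.0, limma 3.58.1 (voom), other scalings and filters, a transcript length slope as covariate, a replicate block and each library left out. Summing processed copies with their parent genes was added after seeing the data. Mitochondrial genes were matched through RefSeq, since no symbol carried the mt- prefix of the pattern. Genes named were those called, the 5 smallest p-values of each comparison, the mitochondrial members, complex II, isoform pairs, and the extremes of level per length and of ratio to Input. Ppargc1b, Tfam and Cldn5, which are no members and were not called, were named beyond this rule. The members and lists were chosen with earlier results of these data known. The procedure was tested on simulated data, with changes larger than those of the common subunits here and without the length slope. It therefore does not show how small a change could be found.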

Additional observations from a re-analysis of the deposited data

Results flagged for a closer look

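In 11 of 188 groups of 6 libraries for the genes named, 1 library stood apart from the other 5 by Dixon's gap criterion, which chance meets in about 1 of 20 groups. Values are TMM-scaled CPM. Control replicate 5 at ZT8, the library with the steepest length slope (0.944), was high for 3 mitochondrial genes: ATP6 was at 258 CPM (others 169 to 194), ND2 at 312 CPM (177 to 203) and ND5 at 138 CPM (50.9 to 83.1). COX1 was at 1197 CPM in ChAT-BKO replicate 2 at ZT8 (others 873 to 991), and Uqcrc2 was at 290.4 CPM in ChAT-BKO replicate 4 at ZT8 (259 to 266).

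The other 6 were rare isoforms. Cox6a2 was at 0.989 CPM in control replicate 2 at ZT8 (others 0 to 0.293), where the muscle marker sum was 105 CPM, and at 0.638 CPM in control replicate 6 at ZT20 (0 to 0.190), where that sum was 29.3 CPM. The part of muscle RNA in these values was not tested. Cox4i2 was at 0.570 CPM in control replicate 2 at ZT20 (0.316 to 0.399). Cox6c2 was at 0.0543 CPM in control replicate 4 at ZT8 (others 0) and at 0.262 CPM in control replicate 4 at ZT20 (0 to 0.0633), and Cox7b2 was at 0.132 CPM in ChAT-BKO replicate 2 at ZT20 (others 0).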

How the results depend on the processing

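With the length slope as a covariate, 1 member was called at ZT8, 5 at ZT20 and 3 between times in ChAT-BKO neurons, against 0 without it. At ZT8 this was Ndufs1 (0.13). At ZT20 they were ND6 (-0.40), ND2 (-0.37), ND1 (-0.37), CYTB (-0.22) and Ndufa6 (0.16). Between times in ChAT-BKO neurons they were ND6 (-0.62), ND1 (-0.39) and CYTB (-0.23). With TMM factors that include the Input, the median log2 ratio to Input was 1.295 for nuclear and -3.62 for mitochondrial members. Without the member with the most counts of each genome, the log2 ratio of mitochondrial to nuclear sums in the Input was 1.83. All fits that left out 1 library called 0 members. In those fits the nuclear median ran from -0.12 to 0.02 for the difference of effects (above 0 without ChAT-BKO replicate 3 at ZT20 or control replicate 5 at ZT8), from -0.05 to 0.07 for time in controls (below 0 without replicate 2 at ZT20 or 5 or 6 at ZT8) and from -0.10 to 0.03 for time in ChAT-BKO neurons (above 0 without replicate 1 or 4 at ZT8 or 1 or 3 at ZT20), and the mitochondrial median from -0.20 to 0.08 in the last (above 0 without replicate 2 at ZT8 or 4, 5 or 6 at ZT20). Deviations of same-numbered libraries correlated above 0.1 for 3 of 6 numbers at ZT8, 2 at ZT20, 4 for time in controls and 1 for time in ChAT-BKO neurons. As this was not so for every number in any comparison, the numbers were not taken to pair samples. With a replicate block 0 members were called in each comparison, and the mitochondrial median at ZT20 was -0.08. Depth limits the rare isoforms, whose intervals are wide.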

Other observations

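The mitochondrial ribosomal RNAs mt-Rnr1 and mt-Rnr2, which are no members and were chosen after their values were seen, were higher at ZT20 than at ZT8. mt-Rnr2 was at 135, 145 and 160 CPM (lowest, median, highest, TMM-scaled) in controls at ZT8 and 178, 206 and 258 CPM at ZT20, and at 132, 150 and 201 CPM and 205, 237 and 267 CPM in ChAT-BKO neurons. The log2 difference was 0.54 (SE 0.08, adjusted p = 0.0074 by edgeR, 6 of 6 libraries) in controls and 0.58 (SE 0.09, adjusted p = 0.00281, 6 of 6 libraries) in ChAT-BKO neurons, and mt-Rnr2 passed the threshold in 21 of 21 alternatives in each. mt-Rnr1 differed by 0.53 (SE 0.10, adjusted p = 0.0305) and 0.50 (SE 0.09, adjusted p = 0.0238), and passed in 13 and 16 of 21 alternatives. Both were lower than in the Input, at log2 -3.15 for mt-Rnr1 and -3.85 for mt-Rnr2. The sum of 8 endothelial and pericyte markers had medians of 17.7 CPM at ZT8 and 23.5 CPM at ZT20 in controls and of 16.5 and 20.5 CPM in ChAT-BKO neurons. Its ranges overlapped, at 14.0 to 20.6 and 18.8 to 27.7 CPM in controls and 14.5 to 19.3 and 15.8 to 27.8 CPM in ChAT-BKO neurons. The 1 marker given singly, the endothelial gene Cldn5, had medians of 3.66 and 6.04 CPM in controls and of 3.26 and 5.75 CPM in ChAT-BKO neurons (adjusted p = 0.239 and 0.0987 by edgeR). In proportion, its medians rose more than those of the sum. Single values of the other markers are not given here, and Cldn5 does not stand for the list. The part of endothelial cells and pericytes in the mt-Rnr1 and mt-Rnr2 values was not tested. The libraries were made from polyadenylated RNA. Of the 13 mitochondrial protein genes, 0 were called in the same comparisons, and with the length slope as a covariate 3 (ND6, CYTB and ND1) were called lower at ZT20 in ChAT-BKO neurons.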
